A study of Homo sapiens with 6 samples.

Results

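The genes described are EGR1 and 9 further immediate early or serum response genes that are not subunits of AP-1, named by their symbols as EGR1, EGR3, NAB1, NAB2, SRF, IER2, IER3, IER5, ZFP36 and ZFP36L1. All 10 were found among the 16781 genes of the expression table, and 9 of them had enough reads for a test, EGR3 being the exception. They were selected on differences between CBS KO and WT already measured in the same table, so these differences are given as a description and without p-values, and a member's call in the fit over all genes supports nothing about it. Messenger RNA was sequenced in 6 libraries of the Caco-2 line, derived long ago from a human colon adenocarcinoma and grown in high-glucose medium with fetal bovine serum. The WT group (3 libraries) was unmodified cells, and the CBS KO group (3 libraries) was cells with a CRISPR/Cas9 knockout of CBS, the enzyme that opens the transsulfuration pathway and also makes hydrogen sulfide. Lentiviral infection had brought Cas9, the guide and puromycin resistance into the latter, and the resistant population was kept and its CBS protein checked by western blot. Empty-vector libraries were not analysed here. Effects of losing CBS, of infection and of selection therefore cannot be told apart. The labels do not say whether replicates were cultured apart. Errors and p-values therefore cover the spread among these 6 libraries alone, and that spread could be technical.

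Immediate early genes are transcribed within minutes of a growth factor, serum or stress signal without new protein synthesis, and most of their mRNAs are short-lived. Serum response factor (SRF) sits on their promoters at an element called the CArG box, where ERK kinases activate its partners, the ternary complex factors. EGR1 and EGR3 are zinc finger transcription factors made in this way, and NAB1 and NAB2 are the corepressors that bind EGR proteins and limit them. ZFP36 and ZFP36L1 bind AU-rich elements in mRNAs and bring the deadenylase that shortens the poly(A) tails of these mRNAs. In the intestinal epithelium such genes respond to injury, growth factors and microbial signals.

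Depth and identity were similar within each group. Total estimated counts ran from 16097680 to 16176745 in WT and from 12805180 to 14307287 in CBS KO, so that a count of 0 allowed a level of up to 0.164 to 0.264 CPM (3 counts, counting error only). CPM are counts scaled to library size, here with TMM factors (trimmed mean of M values). CBS itself, the knocked-out gene, measured 48.8, 53.0 and 50.6 CPM in WT against 24.6, 18.5 and 25.4 CPM in CBS KO. All 10 colon epithelial markers were detected in both groups, with a summed level of 7182 to 7759 CPM in WT and 9231 to 10040 CPM in CBS KO. At an adjusted p under 0.05 (edgeR) 7 were called higher and 2 lower, beside 38.4% and 38.9% of all genes. With TPM 2 were higher and 5 lower, beside 15.2% and 67.6%. The 2 called lower with edgeR were CDX2 (294 ± 8.58 against 76.8 ± 1.46 CPM) and VIL1 (959 ± 20.3 against 766 ± 31.8 CPM). Among the 7 called higher, GPA33 rose from 13.2 ± 1.44 to 102 ± 11.7 CPM and EPCAM from 528 ± 11.2 to 1122 ± 21.5 CPM. LGALS4 stayed under 3 CPM in every library. Fibroblast markers (7 of 8 measured) summed to 228 to 258 CPM in WT and 191 to 203 CPM in CBS KO. COL1A1 made up most of this sum and was not called (197 ± 14.7 against 181 ± 8.21 CPM), while PDGFRA fell from 24.7 ± 1.95 to 7.12 ± 1.91 CPM, PDGFRB from 19.6 ± 0.60 to 4.85 ± 0.52 CPM and COL3A1 from 3.05 ± 0.40 to 0.86 ± 0.35 CPM, and LUM rose from 1.48 ± 0.25 to 3.64 ± 0.43 CPM. Leukocyte markers (6 of 8) summed to 42.7 to 50.6 CPM in WT and 99.0 to 116 CPM in CBS KO, most of it CD68 (32.9 ± 3.00 against 91.8 ± 8.25 CPM). LYZ rose from 2.47 ± 0.20 to 7.91 ± 0.48 CPM, CD14 fell from 9.19 ± 1.07 to 4.24 ± 0.22 CPM, and ITGAM was not called. Endothelial markers (4 of 5) summed to 25.5 to 29.2 and 9.23 to 9.92 CPM, most of it PECAM1 (24.99 ± 1.59 against 7.35 ± 0.62 CPM). VWF fell from 2.50 ± 0.55 to 1.73 ± 0.16 CPM, while CDH5 had 3 counts over the WT libraries and 17 over the CBS KO libraries. Of the other markers in these 3 lists, PTPRC, COL1A2, THY1 and TEK each had no more than 1 count in either group, and CD3E had 5 counts over the WT libraries and 10 over the CBS KO libraries. The part of these marker levels in the results was not tested. In bulk RNA, fewer cells that express a gene and less of its RNA per cell cannot be told apart.

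The upstream sequences of 4 members are shown because their mRNAs behaved differently although all are classed together. EGR1 was far lower in CBS KO, IER5 was higher, and SRF and NAB2 lay near the median of all genes. Each line gives the 250 bases before the transcription start, 5′ to 3′ along the gene, from RefSeq (GRCh38.p14), with CArG boxes and matches to GCGNGGGCG, the core of the EGR binding element, in capitals. The regions are chr5:138465229-138465478 for EGR1, chr6:43171019-43171268 for SRF, chr12:57088864-57089113 for NAB2 and chr1:181088450-181088699 for IER5, all on the plus strand.
EGR1: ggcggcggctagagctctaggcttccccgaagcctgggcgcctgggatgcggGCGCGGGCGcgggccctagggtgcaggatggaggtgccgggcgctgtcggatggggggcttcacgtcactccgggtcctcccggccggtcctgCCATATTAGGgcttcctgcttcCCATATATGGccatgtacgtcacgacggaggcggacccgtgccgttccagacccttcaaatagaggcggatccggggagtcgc
SRF: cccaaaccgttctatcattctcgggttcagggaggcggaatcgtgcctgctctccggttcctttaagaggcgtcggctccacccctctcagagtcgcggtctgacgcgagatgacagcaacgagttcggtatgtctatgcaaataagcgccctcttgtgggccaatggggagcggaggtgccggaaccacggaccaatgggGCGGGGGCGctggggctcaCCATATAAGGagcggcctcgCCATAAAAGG
NAB2: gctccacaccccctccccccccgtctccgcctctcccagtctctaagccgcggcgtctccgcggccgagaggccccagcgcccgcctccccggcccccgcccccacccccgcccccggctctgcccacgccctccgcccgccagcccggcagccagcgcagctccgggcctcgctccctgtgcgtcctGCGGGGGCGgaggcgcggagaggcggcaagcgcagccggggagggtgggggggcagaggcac
IER5: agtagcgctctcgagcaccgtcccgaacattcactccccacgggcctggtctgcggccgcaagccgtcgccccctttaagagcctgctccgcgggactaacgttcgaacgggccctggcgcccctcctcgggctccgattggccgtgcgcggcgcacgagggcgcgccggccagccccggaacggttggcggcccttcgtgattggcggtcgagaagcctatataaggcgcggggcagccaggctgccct

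Windows of 300 bases, 250 before and 50 after a start, were found for 8 of the 10 members (all but EGR3 and IER3). They were searched on both strands for 5 motifs. NAB1, SRF and ZFP36L1 had more than 1 window each, so a share of windows is not a share of genes. CArG boxes were found in EGR1 and SRF only. EGR1 had CCATATTAGG from 105 bases and CCATATATGG from 83 bases before its start, and SRF, whose own gene is a known SRF target, had CCATATAAGG from 30 bases and CCATAAAAGG from 10 bases before its start. Of all 35116 windows 1.29% held a CArG box and 11 windows held 2 or more. GCGNGGGCG was found in EGR1 (from 198 bases before the start), SRF (from 49), NAB2 (from 62), NAB1 and ZFP36L1, against 9.43% of all windows. In NAB1 a pair of these matches overlapped each other. The cAMP response element TGACGTCA was found in ZFP36L1 (1.85% of all windows), the ETS core CCGGAAG in IER2 (10.3%), and the AP-1 element TGANTCA in none of the 8 genes (7.71%). The windows of ZFP36 and IER5 held none of the 5 motifs. EGR1 and SRF thus each carried 2 CArG boxes within these windows, and the sizes of their differences between the groups are given next.

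EGR1 was far lower in CBS KO. EGR1 (Entrez 1958, chromosome 5, 138465479 to 138469303 in GRCh38), the founding member of its family, had 58.9, 73.5 and 74.1 CPM across WT and 11.2, 11.3 and 13.6 CPM across CBS KO. Every CBS KO library was therefore at less than the lowest WT value, and WT replicate 1 was the lowest of its group. The group means were 68.8 ± 8.60 and 12.0 ± 1.32 CPM (SD, n = 3 in each), a log2 fold change of -2.51 (SE 0.11) or 5.70-fold lower. Of the 13028 genes tested, 0.852% had a lower log2 fold change. In reads, 1072, 1339 and 1356 counts in WT stood against 137, 129 and 167 in CBS KO, so counting error is small beside the difference.

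The other EGR family members were scarce. EGR3 (Entrez 1960) had 1, 2 and 3 counts in the WT libraries and 0 in each CBS KO library. With 6 counts against none it was at least 1.31-fold lower, taking 3 counts over the CBS KO group as the limit and the 6 WT counts as given, without their own counting error. In a fit without the filter on low counts EGR3 was not called. EGR2 and EGR4, which are not members, had 45 against 43 counts and 26 against 3 counts over the WT and CBS KO libraries, and EGR2 was not called (adjusted p = 0.133, edgeR). EGR1 was thus the only abundant member of its family in WT, at 44.9 ± 5.63 TPM (a per-length measure that sums to the same total in each library), where EGR2, EGR3 and EGR4 stayed under 1 TPM in every library.

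The corepressors of EGR1 differed far less between the groups. NAB1 (Entrez 4664) had 131, 126 and 123 CPM in WT and 183, 175 and 166 CPM in CBS KO, a log2 fold change of 0.46 (SE 0.06) with no overlap between the groups. NAB2 (Entrez 4665), which EGR1 itself is known to induce in a feedback loop, had 45.3, 43.4 and 46.8 CPM in WT and 40.4, 43.9 and 47.8 CPM in CBS KO. The NAB2 groups overlapped and the log2 fold change was -0.04 (SE 0.07). NAB2 overlaps STAT6 by 69 bases, and whether strand was used in counting is not given in the sources used here. Within a library, TPM ratios do not depend on how libraries are scaled: EGR1 amounted to 0.387, 0.503 and 0.497 of the summed NAB1 and NAB2 level in WT and to 0.0605, 0.0615 and 0.0738 of it in CBS KO. The ratio of NAB1 to NAB2 was 1.51 ± 0.09 in WT and 2.13 ± 0.28 in CBS KO, with no overlap between the groups.

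SRF (Entrez 6722) had 66.0, 66.8 and 70.8 CPM in WT and 81.2, 77.7 and 83.8 CPM in CBS KO. The groups did not overlap, but the difference was small, with a log2 fold change of 0.25 (SE 0.06), and its direction depended on the scaling (given below with that of NAB1). The TPM ratio of EGR1 to SRF was 1.24, 1.52 and 1.45 in WT and 0.192, 0.202 and 0.224 in CBS KO. Thus EGR1 mRNA was above that of SRF in each WT library and far below it in each CBS KO library.

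The 3 IER genes, whose products differ in role, went separate ways. IER2 (Entrez 9592), a nuclear regulator of transcription, had 50.0, 55.8 and 56.9 CPM in WT and 53.3, 50.1 and 59.3 CPM in CBS KO. The groups overlapped throughout, with means of 54.2 ± 3.67 and 54.2 ± 4.66 CPM and a log2 fold change of 0.00 (SE 0.08). IER3 (Entrez 8870), a regulator of apoptosis and of NF-kB and ERK signalling, had 12.3, 16.5 and 17.5 CPM in WT and 124, 125 and 136 CPM in CBS KO. Its log2 fold change of 3.05 (SE 0.10), or 8.31-fold higher, was the largest of the 10 members, and 1.29% of the genes tested had a higher one. The lncRNA IER3-AS1 overlaps 475 bases of IER3, and without strand its reads cannot be told from those of IER3.

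IER5 (Entrez 51278), which binds HSF1 and the phosphatase PP2A and favours the heat shock response, had 57.9, 61.8 and 60.5 CPM in WT and 213, 205 and 231 CPM in CBS KO. The log2 fold change was 1.85 (SE 0.06), with no overlap. Per length and within a library, IER3 went from 0.475, 0.572 and 0.595 times the level of IER2 in WT to 4.53, 4.81 and 4.42 times that level in CBS KO. For IER5 the same ratio went from 0.515 ± 0.02 to 1.85 ± 0.04. The ratio of IER3 to EGR1 moved furthest, from 0.677 ± 0.04 to 32.4 ± 2.00.

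ZFP36 (Entrez 7538), the AU-rich binding protein also called tristetraprolin, had 24.2, 23.1 and 21.7 CPM in WT and 134, 123 and 127 CPM in CBS KO. The log2 fold change was 2.48 (SE 0.07), or 5.57-fold higher, with no overlap between the groups. ZFP36L1 (Entrez 677), a paralog with the same kind of RNA-binding fingers, had 30.7, 32.3 and 34.7 CPM in WT and 59.8, 54.2 and 52.6 CPM in CBS KO, a log2 fold change of 0.77 (SE 0.08). The third paralog, ZFP36L2, is not a member and was lower in CBS KO, at 191 ± 15.7 CPM against 442 ± 14.4 in WT (log2 change -1.21, SE 0.07, adjusted p = 4.99e-11, edgeR). The family therefore changed in composition. ZFP36 made up 10.4, 9.96 and 9.77% of the summed TPM of the 3 paralogs in WT and 52.8, 53.0 and 54.8% in CBS KO, while ZFP36L2 went from 82.3 ± 0.40% to 34.0 ± 1.01% and ZFP36L1 from 7.71 ± 0.64% to 12.5 ± 0.10%. The summed level was 293 ± 7.83 TPM in WT and 205 ± 24.6 TPM in CBS KO.

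**Figure D1:**
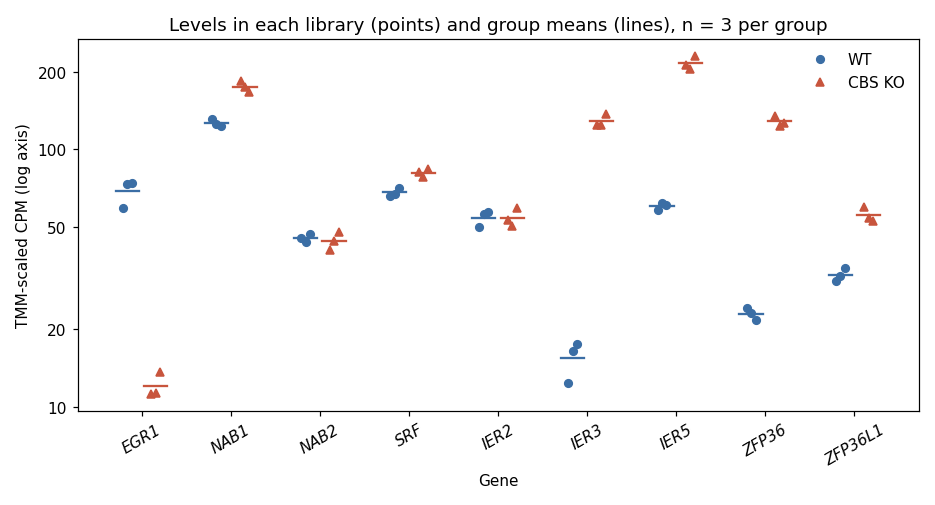
TMM-scaled CPM on a log axis for the 9 tested members, with 1 point per library and a line at each group mean. EGR1 is the only gene whose CBS KO points lie below all WT points, NAB2 and IER2 overlap, and IER3, IER5 and ZFP36 show the widest gaps upwards.

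Of the 10 members, 6 were called higher (NAB1, SRF, IER3, IER5, ZFP36 and ZFP36L1) and 1 lower (EGR1) at an adjusted p under 0.05 in edgeR, 2 were not called (NAB2 and IER2), and EGR3 was not tested. In the same fit 77.2% of all genes were called, 38.4% higher and 38.9% lower, and 79.1% of genes had groups that did not overlap, 38.9% with CBS KO above WT and 40.1% with it below, so the count of calls says little about the members. The median log2 fold change was 0.46 over the 9 tested members and -0.01 over all genes tested. The biological coefficient of variation between replicates, as edgeR estimates it, was 0.0745 for EGR1 and 0.0712 for IER3, from 0.051 to 0.0605 for the other 7, and 0.0578 at the median of all genes.

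The order of the members turned over between the groups. In WT, from the highest TPM down, it was NAB1, IER2, EGR1, NAB2, SRF, IER3, ZFP36, IER5, ZFP36L1 and EGR3, from 58.5 ± 1.82 TPM for NAB1 to 22.6 ± 1.27 TPM for ZFP36L1 and 0.0567 ± 0.025 TPM for EGR3. Neighbours overlapped between NAB1 and IER2, between EGR1 and NAB2, and from SRF through IER3 and ZFP36 to IER5. In CBS KO the order was IER3, ZFP36, IER5, NAB1, IER2, NAB2, ZFP36L1, SRF, EGR1 and EGR3. IER3 led at 169 ± 5.82 TPM and ZFP36 followed at 109 ± 11.4 TPM, while EGR1 had 5.22 ± 0.28 TPM. NAB2, ZFP36L1 and SRF overlapped in CBS KO and the other neighbours did not.

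The direction of the smaller differences depended on how libraries were scaled. Over all genes the median difference was -0.01 under TMM, -0.36 when scaled by library total, -0.32 on log2(FPKM + 1) and -0.54 on log2(TPM + 1). On those 4 scales the log2 fold change of NAB1 was 0.46, 0.11, 0.13 and -0.10, and that of SRF 0.25, -0.10, -0.10 and -0.32. Among these scales NAB1 was called with TMM only. SRF was called higher with TMM, lower with TPM and not called on the scales between. NAB2 stood at -0.04, -0.39, -0.34 and -0.57 and IER2 at 0.00, -0.35, -0.34 and -0.57, so both were called lower on the last 3. Of all genes, 22.8% were called higher and 56.8% lower by library total (79.6% in all), 22.9% and 57.8% with FPKM (80.6%), and 15.2% and 67.6% with TPM (82.8%). With a pseudocount of 0.1 on TPM the shares were 15.1% and 67.4% (82.5%). ZFP36L1 stayed above 0 at 0.77, 0.42, 0.39 and 0.17 but was not called with TPM. For EGR1 the values ran from -2.88 to -2.51, for IER3 from 2.45 to 3.05, for IER5 from 1.23 to 1.85 and for ZFP36 from 1.86 to 2.48. Taken relative to the median of all genes, the 4 scales differed little: NAB1 lay 0.44 to 0.48 above it, SRF 0.22 to 0.27 above, NAB2 0.02 to 0.03 below, IER2 within 0.03 of it, and EGR1 2.25 to 2.50 below.

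**Figure D2:**
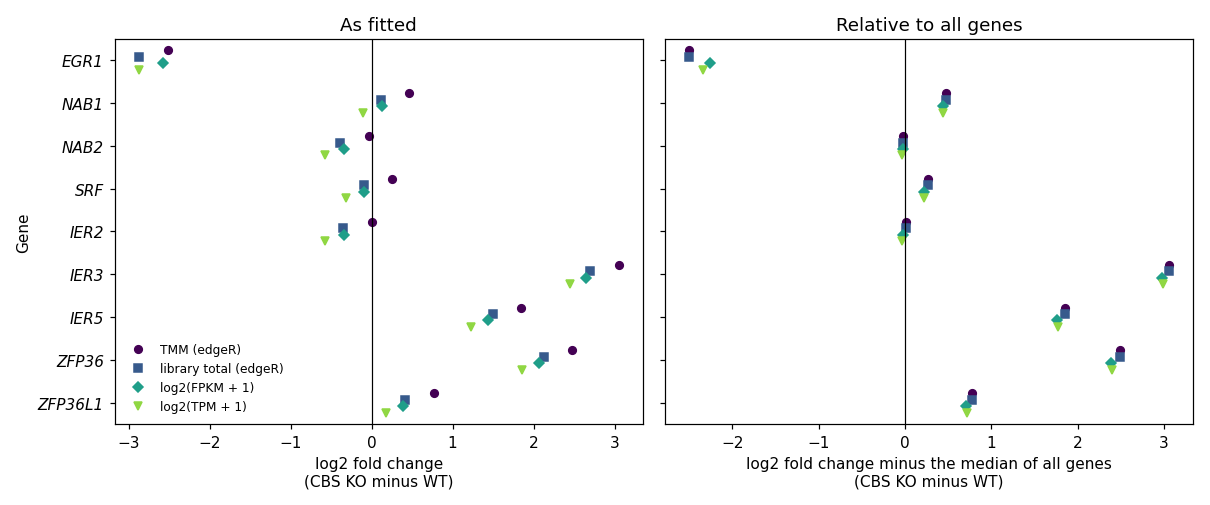
Log2 fold change of each member, CBS KO minus WT, under 4 scalings (symbols), as fitted on the left and after subtracting the median of all genes on the right. NAB1 and SRF cross 0 on the left, and on the right the 4 symbols of each gene lie close together.

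Most members have few exons. The main GENCODE v29 transcripts of IER2 and IER5 have 1 exon and those of EGR1, EGR3, IER3, ZFP36 and ZFP36L1 have 2, while NAB2 and SRF have 7 and NAB1 has 10. Among 12954 tested genes with such a transcript, 898 (6.93%) had 1 or 2 exons, and of these 333 were called higher and 372 lower, with a median log2 fold change of -0.05 against -0.01 for all. The middle 50% of single-exon genes spanned -1.05 to 0.86, that of genes with 1 or 2 exons -0.935 to 0.724, and that of genes with 3 or more exons -0.53 to 0.52. Of the 6 tested members with 1 or 2 exons, only IER2 (0.00) lay within the middle 50% of that class. EGR1 lay below it, ZFP36L1 (0.77) just above it, and IER3, IER5 and ZFP36 further above. The members were selected on these differences, so their places within the class are a description only.

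AU-rich elements, the sites that ZFP36 proteins bind, were searched in the 3′ UTRs of the same transcripts as TTATTTATT on the sense strand. Sites are shown for ZFP36 and IER5, which were higher in CBS KO, and for SRF and NAB2, which lay near the median of all genes, with the match in capitals, as DNA and 5′ to 3′.
ZFP36: tgacgactTTATTTATTctaatatgatt
IER5: gtcttcctTTATTTATTTATTTATTtaa
SRF: ggcaccacTTATTTATTgttgccttttc
NAB2: acagtagaTTATTTATTttgttattttg
IER5 had 3 overlapping matches, NAB1, NAB2, SRF, ZFP36 and ZFP36L1 had 1 each, and EGR1, EGR3, IER2 and IER3 had none. The shorter ATTTA occurred 10 times in NAB1 and in IER5, 8 times in ZFP36L1, 6 times in IER3 and 5 times in ZFP36. It occurred 3 times each in SRF, NAB2 and EGR3, once in EGR1 and 0 times in IER2. Of the 12954 genes, 1069 (8.25%) held TTATTTATT in the 3′ UTR. Of these 528 were called higher and 286 lower (median log2 fold change 0.20), against 4444 and 4754 of the 11885 genes without it (median -0.03).

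The other immediate early genes were mostly higher in CBS KO. Of 24 such genes outside AP-1, 21 were tested, 18 rose and 2 fell (SGK1 and ZFP36L2). Their median log2 fold change was 2.04 against -0.01 for all genes. In the same fit 38.4% of all genes were called higher and 38.9% lower. With TPM 12 were higher and 2 lower of 17 (median 1.58), beside 15.2% and 67.6% of all genes. These counts depend in part on the filter on low counts. ARC (14 counts in WT against 71 in CBS KO) and NR4A3 (16 against 39) could enter through their CBS KO reads alone. EGR4, which went the other way (26 against 3), was left out. With no filter 19 rose and 3 fell of 24. Under a stricter filter, 5 CPM on average, 15 rose and 2 fell of 17. SGK1 was close to the threshold (adjusted p = 0.0425, edgeR) and its groups overlapped. The number that fell was 1 with DESeq2, with its size factors, and without WT replicate 1, WT replicate 3 or CBS KO replicate 2. The matricellular protein gene CCN1 rose from 16.4 ± 0.99 to 311 ± 8.07 CPM, GADD45B from 6.98 ± 0.56 to 130 ± 11.7 CPM and the small GTPase RHOB from 37.5 ± 1.28 to 345 ± 41.0 CPM (adjusted p = 2.59e-17, 9.05e-16 and 1.06e-14, edgeR). Among 8 genes of AP-1 and ATF3, 7 rose and 1 fell (FOSL2), with a median of 2.70. FOS, a classical SRF target beside EGR1 and named after its value was seen, rose by 2.43 on the log2 scale (SE 0.09), to 114 ± 14.3 CPM from 21.2 ± 0.72 (adjusted p = 5.54e-13, edgeR). The TPM ratio of EGR1 to FOS was 1.81, 2.12 and 2.26 in WT and 0.0731, 0.0586 and 0.0715 in CBS KO.

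Upstream of the members, genes of the cascade from growth factor receptors to ERK were mixed in direction. The counts of this and the next lists stand beside 38.4% of all genes called higher and 38.9% lower with TMM, and 15.2% and 67.6% with TPM. Of its 27 genes 16 rose, 6 fell and 5 did not pass, with a median of 0.44, while 9 were higher and 11 lower by library total and 5 and 11 with TPM (median -0.14). The ERK inhibitors SPRY2 and SPRED1 rose 2.44-fold and 2.15-fold and the ERK kinase gene MAP2K1 from 47.6 ± 2.40 to 90.6 ± 5.03 CPM (adjusted p = 2.27e-10, 3.11e-08 and 2.62e-09, edgeR). Of 5 tested SRF cofactors 2 rose and 2 fell (median 0.22), and with TPM 1 was higher and 3 lower of 4 (median -0.41). The ternary complex factor ELK4 rose from 34.4 ± 2.06 to 81.6 ± 16.3 CPM, while the actin-regulated cofactors MRTFA and MRTFB fell from 23.8 ± 1.07 to 12.3 ± 0.69 CPM and from 79.1 ± 2.31 to 58.8 ± 3.89 CPM (adjusted p = 1.74e-06, 4.62e-08 and 2.25e-05, edgeR). Of 20 tested cytoskeletal targets of SRF 13 rose and 3 fell (median 0.29), but 5 were higher and 9 lower by library total and 4 higher and 13 lower with TPM (median -0.26). FHL2 rose 9.12-fold and the tropomyosins TPM2 and TPM4 2.23-fold and 1.93-fold (adjusted p = 2.88e-14, 2.08e-09 and 3.49e-10, edgeR).

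Downstream, genes known as EGR1 targets moved both ways. Of 16 tested, 10 rose and 4 fell (median 0.84), and by library total 10 were higher and 6 lower. With TPM 7 were higher and 6 lower of 15 (median 0.23). The angiogenic growth factor gene VEGFA rose from 276 ± 14.6 to 650 ± 29.3 CPM (adjusted p = 2.55e-11, edgeR). The genes that fell were IGF2, F3, FN1 and CCND1. Both CCND1 and VEGFA also stand in the list of AU-rich mRNAs, as does FOS from the AP-1 list. Of 13 genes of NuRD, the chromatin complex that NAB proteins recruit, 4 rose and 6 fell (median -0.08), a share called near that of all genes (77.2%). With TPM 0 were higher and 11 lower (median -0.70). Its helicase CHD4 fell 2.09-fold and MBD3 1.94-fold (adjusted p = 1.53e-10 and 1.52e-09, edgeR).

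Among 18 tested mRNAs known to be bound by ZFP36, 13 rose and 3 fell, with a median of 1.30. With TPM 10 were higher and 5 lower of 17 (median 0.45). Under a stricter filter, 5 CPM on average, 8 rose and 2 fell of 11 (median 2.43). With no filter on low counts 14 rose and 3 fell of 21 (median 2.39). The phosphatase gene DUSP1 rose 25.8-fold and the urokinase receptor gene PLAUR went from 3.25 ± 0.50 to 74.98 ± 3.50 CPM (adjusted p = 2.59e-17 and 9.60e-16, edgeR). The cytokine gene IL23A had 4 counts over the WT libraries and 191 over the CBS KO libraries, so few WT reads leave the size of the rise uncertain. TNF had 2 counts over the WT libraries and 75 over the CBS KO libraries. Both IL23A and TNF could enter the test through their CBS KO reads alone, so their calls add little to the count of genes that rose. The deadenylase and decapping genes were divided, with 9 of 18 higher and 5 lower (median 0.16), again near the share of all genes called. By library total 5 were higher and 9 lower, and with TPM 3 and 11 (median -0.41). Its members CNOT6L, DCP2 and CNOT7 rose 2.48-fold, 2.25-fold and 1.88-fold (adjusted p = 9.80e-11, 2.94e-10 and 9.21e-10, edgeR). Of 8 other proteins that bind such elements 4 rose and 3 fell (median 0.08), while 2 were higher and 4 lower by library total and 2 and 5 with TPM (median -0.28). RC3H1 and TIAL1 rose 1.97-fold and 1.79-fold and HNRNPD fell 1.48-fold (adjusted p = 1.95e-06, 2.93e-09 and 4.87e-08, edgeR). Of HSF1 and 7 PP2A subunits, partners of IER5, 5 rose and 2 fell (median 0.34), while 4 were higher and 4 lower by library total and 1 and 4 with TPM (median -0.26). With TMM PPP2CB was 2.64-fold and PPP2R2A 1.61-fold higher and PPP2R1B 1.58-fold lower (adjusted p = 4.38e-12, 1.89e-08 and 1.60e-06, edgeR). In TPM the groups of RC3H1 and PPP2R2A overlapped.

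The genes most like EGR1 over the 6 libraries, by Pearson's r of log2(CPM + 0.5), were WDR73, FNDC10, RBM23, CLN6 and MRPS27, with r from 0.9993 to 0.9997. Their log2 fold changes ran from -1.56 to -0.47, all smaller in size than that of EGR1. With 3 libraries in each of 2 groups such a value mostly reflects the gap between the groups, and 618 of 10917 genes reached r over 0.99. For IER3 the 5 nearest genes were MORF4L2, TUBA1A, MTHFD2, ZPR1 and RAB1A (r from 0.9991 to 0.9998). For IER5 they were CAPZA1, IDI1, ETV4, TRIB3 and BAMBI (r from 0.9995 to 0.9998), and for ZFP36 NPNT, B4GALT3, HK2, C2CD2L and KLF6 (r of at least 0.9998).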

How the data were processed

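Polyadenylated RNA of 3 WT and 3 CBS KO Caco-2 libraries was sequenced in paired ends, per the labels' protocols. Named in the submitters' processing notes, with no role stated, are StringTie 2.1.6, HISAT2 2.2.1, cutadapt 1.9, edgeR, DESeq2 and, as build, GRCh38. The authors deposited estimated counts (7.12 to 7.43% of a library's values were not whole) and FPKM and TPM values, per the file headers. How reads were assigned to genes and whether strand was used is not given in the sources used here. The authors' group means were not used.

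Estimated counts were rounded. Genes were filtered with filterByExpr (13028 left), scaled by TMM and tested with edgeR's quasi-likelihood test (edgeR 4.0.16, limma 3.58.1, R 4.3.3) with no covariate, all 6 libraries and Benjamini-Hochberg adjustment over all genes tested. The SE is the size of the log2 fold change over the square root of its F statistic. The test was checked on simulated counts in which few genes differed, as many up as down. That check does not cover data in which most genes differ, nor the choice of scaling. The alternatives were DESeq2 1.42.0, other scalings and filters, limma-trend on log2(FPKM + 1), log2(TPM + 1) and log2(TPM + 0.1) on genes whose mean reached 1, the replicate block and leaving out each library.

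The members and gene lists were chosen with earlier results of these data known. Named list genes are the 3 called genes per list with the largest change among those whose groups do not overlap and whose higher mean is at least 5 CPM. Further genes were named with their values in view. Some genes that the rule names are not reported here. FOSB, JUN and ATF3, which this rule names in AP-1, rose from 0.60, 14.9 and 6.03 to 9.84, 500.1 and 126 CPM. The rule's NuRD gene MTA2 went from 90.5 to 60.2 CPM. Promoters came from RefSeq and transcripts from GENCODE v29, where 1 transcript per gene was taken, the principal one where the annotation names it and otherwise the longest. Positions are those of RefSeq, which held 16732 of the 16781 Entrez IDs.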

Additional observations from a re-analysis of the deposited data

How the results depend on the processing

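Across the alternatives the called directions of EGR1, IER3, IER5 and ZFP36 held. With the library total, log2(FPKM + 1), log2(TPM + 1) and log2(TPM + 0.1), 2966, 2679, 1844 and 1834 of all genes were called higher, against 4998 with TMM, and with both TPM scales 8216 and 8191 were called lower, against 5062. On the same 4 scales 3, 3, 4 and 4 members were called lower against 1, and with both TPM scales 3 members were called higher against 6. Of the genes in the pathway lists (99 higher and 36 lower with TMM), 61, 56, 71 and 71 were called lower on these scales, and 65, 50 and 49 higher with FPKM and the TPM scales. SRF turned to -0.10, -0.10, -0.32 and -0.33 on them, and NAB1 to -0.10 and -0.10 with TPM. The cause was not tested. Leaving out 1 library at a time left 6 members higher and 1 lower, and the log2 fold change of EGR1 between -2.62 and -2.46.

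Deviations of same-numbered libraries from their group means were only weakly correlated (r of 0.056, 0.011 and 0.029). This shows no strong pairing by number in the values. It cannot show whether same-numbered libraries were cultured or prepared together. With the replicate block 4986 genes were higher and 5058 lower, and no member changed its call. EGR3, with 6 counts in all, is limited by depth.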
